A study of Mus musculus with 18 samples.

Results

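The genes described here are those of the LIF, gp130 and STAT3 axis, 10 genes chosen by name from the 49671 gene identifiers of a count table of mouse embryonic stem (ES) cells in 3D culture. They are the ligand Lif, the receptor chains Lifr, Il6st (gp130), Il6ra and Cntfr, the kinase Jak1, the transcription factor Stat3, and Socs3, Pim1 and Pim3, which are transcribed in response to STAT3 in many cell types. RNA was sequenced from 18 samples in 6 groups of 3. The study asked how Wnt/β-catenin signalling and the naive factor Esrrb act on the epithelial polarisation of ES cells embedded in Matrigel.

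Wild-type E14 ES cells (strain label read as 129/Ola), at passage 20, were grown for 48 h in N2B27 medium with 1 of 4 additions. DMSO, the solvent, served as control. CH was the GSK3 inhibitor CHIR99021 at 3 µM, and 2i was the same dose of CHIR99021 with the MEK inhibitor PD0325901 at 0.4 µM. Fgf2/Activin was Fgf2 at 12 ng/ml with Activin A at 20 ng/ml. The other 2 groups came from 1 Esrrb fl/fl ES cell line with a tamoxifen-inducible Cre (MerCreMer; strain given as Acr-EGFP transgenic), at passage 25, grown for 24 h in CH after 1 day with 4-hydroxytamoxifen (4OHT; Esrrb null) or without it (Esrrb fl/fl). These 2 groups differed from the E14 cells in line, strain, passage and time, so levels between the lines are given without a test. The cells of all groups had been maintained before in 2i with Lif at 4 ng/ml, and none of the 3D media held Lif. The paper states for its experiments as a whole that each was repeated at least 3 times. The labels do not say how the 3 samples of a group were separated, so the spread that the p-values measure may be technical in part.

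Lif binds Lifr, which pairs with gp130, and the JAK kinases on the receptor tails then phosphorylate STAT3, which enters the nucleus and activates genes. Il6ra and Cntfr are the α chains that bring Il6 and Cntf to the same gp130, and Socs3 closes a feedback loop by binding gp130 and JAK. In mouse ES cells the pathway is known for sustaining self-renewal, through targets that include Klf4 and Tfcp2l1.

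The E14 samples held 25388139 to 37158661 reads on genes, and those of the Esrrb fl/fl line 19915222 to 20140699. Levels are CPM, counts brought to a common total with TMM scaling over the 18 samples, in the order of replicates 1, 2 and 3. Expression of the ES cell gene Pou5f1 was high in every sample, at 535, 635 and 641 CPM in DMSO, 662, 920.2 and 916 in CH, 709, 767 and 773 in Fgf2/Activin and 745, 920.2 and 883 in 2i. In the Esrrb fl/fl line it was 1280.0, 1183 and 1208 CPM without and 866, 852 and 810.3 CPM with 4OHT. Other ES cell markers differed between the cultures, and of the 8 listed 5 were called higher and 1 lower in CH than in DMSO, against 7.51% and 10.2% of all genes tested. Zfp42, for example, had 50.9, 41.5 and 35.9 CPM in DMSO, 41.7, 39.7 and 39.0 in Fgf2/Activin, 327, 396 and 465 in CH and 475, 584 and 578 in 2i. The call of Nanog, another of the 5, was lost with DESeq2's Wald test, with only the 6 samples compared, without replicate 2 or 3 of DMSO and without any one replicate of CH. The primed epiblast gene Fgf5 separated the cultures, at 27.6, 54.3 and 58.9 CPM in DMSO and 130.3, 113 and 115 CPM in Fgf2/Activin against at most 0.556 CPM in CH and at most 0.266 CPM in 2i.

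Replicate 1 stood apart in every group. Over 10521 genes with a mean of at least 5 CPM, the root mean square difference of log2(CPM + 1) between replicate 1 and replicate 2 or 3 of its group lay between 0.234 and 0.484, against 0.095 to 0.188 between replicates 2 and 3. Several axis genes showed this split. In all 6 groups replicate 1 was the lowest sample for Cntfr and the highest for Stat3 and Pim3, and in the 4 E14 groups it was also the highest for Socs3, Pim1 and Jak1. Each comparison was therefore also fitted without replicate 1 of any group, an alternative chosen after seeing the data, and with a block for the replicate number.

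A call needed an adjusted p below 0.01 and a log2 fold change beyond 1 in either direction, with edgeR's quasi-likelihood test and the Benjamini-Hochberg method over every gene tested. All 10 axis genes passed the filter on low counts in both lines. Between CH and DMSO, 5 of 10 axis genes were called higher, where 7.51% of the 16413 genes tested were, and 0 were called lower, where 10.2% were. At an unadjusted p under 0.05, 5 were higher and 0 lower, and DESeq2's Wald test gave the same counts of calls. The median log2 fold change of the 10 was 1.40, against 0.00 over all genes tested. The genes called higher were Il6ra, Il6st, Lifr, Pim1 and Stat3.

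Lif itself (chromosome 11, 4257557 to 4272514) was expressed at a low level in all cultures. It had 11.2, 7.52 and 5.61 CPM in DMSO, 12.9, 6.47 and 6.96 in CH, 7.76, 9.41 and 8.42 in Fgf2/Activin and 10.8, 6.25 and 5.50 in 2i. The 4 groups overlapped, and no comparison of the E14 cultures called Lif. In the Esrrb fl/fl line it had 7.08, 6.22 and 5.74 CPM without and 10.3, 9.74 and 9.35 CPM with 4OHT. The Esrrb null samples were all above the others, by a log2 fold change of 0.67 ± 0.12 (with the standard error, adjusted p = 0.00169, edgeR quasi-likelihood test, Benjamini-Hochberg), which lies under the minimum fold change of a call.

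Lifr (chromosome 15, 7090614 to 7197489), the chain that binds Lif, had 11.3, 13.9 and 14.2 CPM in DMSO and 13.3, 12.6 and 12.2 CPM in Fgf2/Activin. It had 53.9, 60.1 and 63.1 CPM in CH and 76.3, 78.2 and 77.7 CPM in 2i. The cultures thus formed a low pair, whose ranges overlapped, and a high pair, with every CH and 2i sample above every DMSO and Fgf2/Activin sample and every 2i sample above every CH sample. Lifr was 4.51-fold higher in CH than in DMSO (log2 fold change 2.17, standard error 0.10; adjusted p = 7.84e-08, edgeR quasi-likelihood test, Benjamini-Hochberg). Between 2i and Fgf2/Activin it was 6.10-fold higher in 2i. The difference between 2i and CH was not called, at a log2 fold change of 0.39 (adjusted p = 0.0302, edgeR quasi-likelihood test, Benjamini-Hochberg). Replicates of one group lay close together, and the calls of Lifr held under all alternatives run.

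Il6st (chromosome 13, 112464070 to 112510086), the signalling chain shared by all receptors of the family, followed the same order. It had 36.7, 32.3 and 32.9 CPM in DMSO and 33.2, 28.2 and 27.3 CPM in Fgf2/Activin, against 148, 153 and 160.3 CPM in CH and 234, 224 and 225 CPM in 2i. The 3 samples of 2i lay above the 3 of CH, and both far above the other cultures, which overlapped. The log2 fold change was 2.18 between CH and DMSO (standard error 0.09; adjusted p = 2.27e-08, edgeR quasi-likelihood test, Benjamini-Hochberg) and 2.94 between 2i and Fgf2/Activin. Between 2i and CH it was 0.56, with an adjusted p of 0.00198 (edgeR quasi-likelihood test, Benjamini-Hochberg), and was not called for its size.

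Il6ra (chromosome 3, 89864059 to 89913196), the α chain for Il6, was high in CH and 2i. It had 1.07, 1.54 and 1.24 CPM in DMSO, 3.17, 3.23 and 3.38 in Fgf2/Activin, 22.4, 18.1 and 19.8 in CH and 18.9, 20.4 and 20.5 in 2i. CH and 2i overlapped at the top, and Fgf2/Activin lay between them and DMSO without overlap. Il6ra was 15.7-fold higher in CH than in DMSO (log2 fold change 3.97, standard error 0.16; adjusted p = 2.76e-08, edgeR quasi-likelihood test, Benjamini-Hochberg). Exons of the antisense gene Gm42809 overlap 2.80% of its exon length, and reads were counted without regard to strand.

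Cntfr (chromosome 4, 41657498 to 41697089), the α chain for Cntf, differed widely between the replicates of a culture. It had 2.06, 4.64 and 6.53 CPM in DMSO, 1.60, 14.9 and 13.1 in CH, 0.846, 3.92 and 3.58 in Fgf2/Activin and 0.523, 7.996 and 7.66 in 2i. In each culture replicate 1 held the lowest level, and the ranges of all 4 cultures overlapped. Within replicate 1 the CH sample was 0.777 times the DMSO sample, whereas in replicates 2 and 3 it was 3.21 and 2.01 times as high. The log2 fold change between CH and DMSO was 1.17 with a standard error of 0.93 (adjusted p = 0.342, edgeR quasi-likelihood test, Benjamini-Hochberg), and none of the comparisons called it. With replicate 1 of every group left out, which was chosen with the Cntfr values known and so is no test of them, the log2 fold change was 1.35 between CH and DMSO and 1.07 between 2i and Fgf2/Activin.

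The chains can be compared with each other only per length. In CPM per kb of exon, the mean of 3 samples was 13.9 for Il6st, 5.48 for Lifr, 3.55 for Cntfr and 2.33 for Il6ra in CH. In DMSO the same means were 3.06 for Il6st, 1.59 for Cntfr, 1.22 for Lifr and 0.148 for Il6ra. The shared chain Il6st was thus the most abundant of the 4 per kb, and by its mean Il6ra the least. In both cultures the samples of Cntfr overlapped those of Lifr, and in CH replicate 1 of Cntfr lay below Il6ra.

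**Figure D1:**
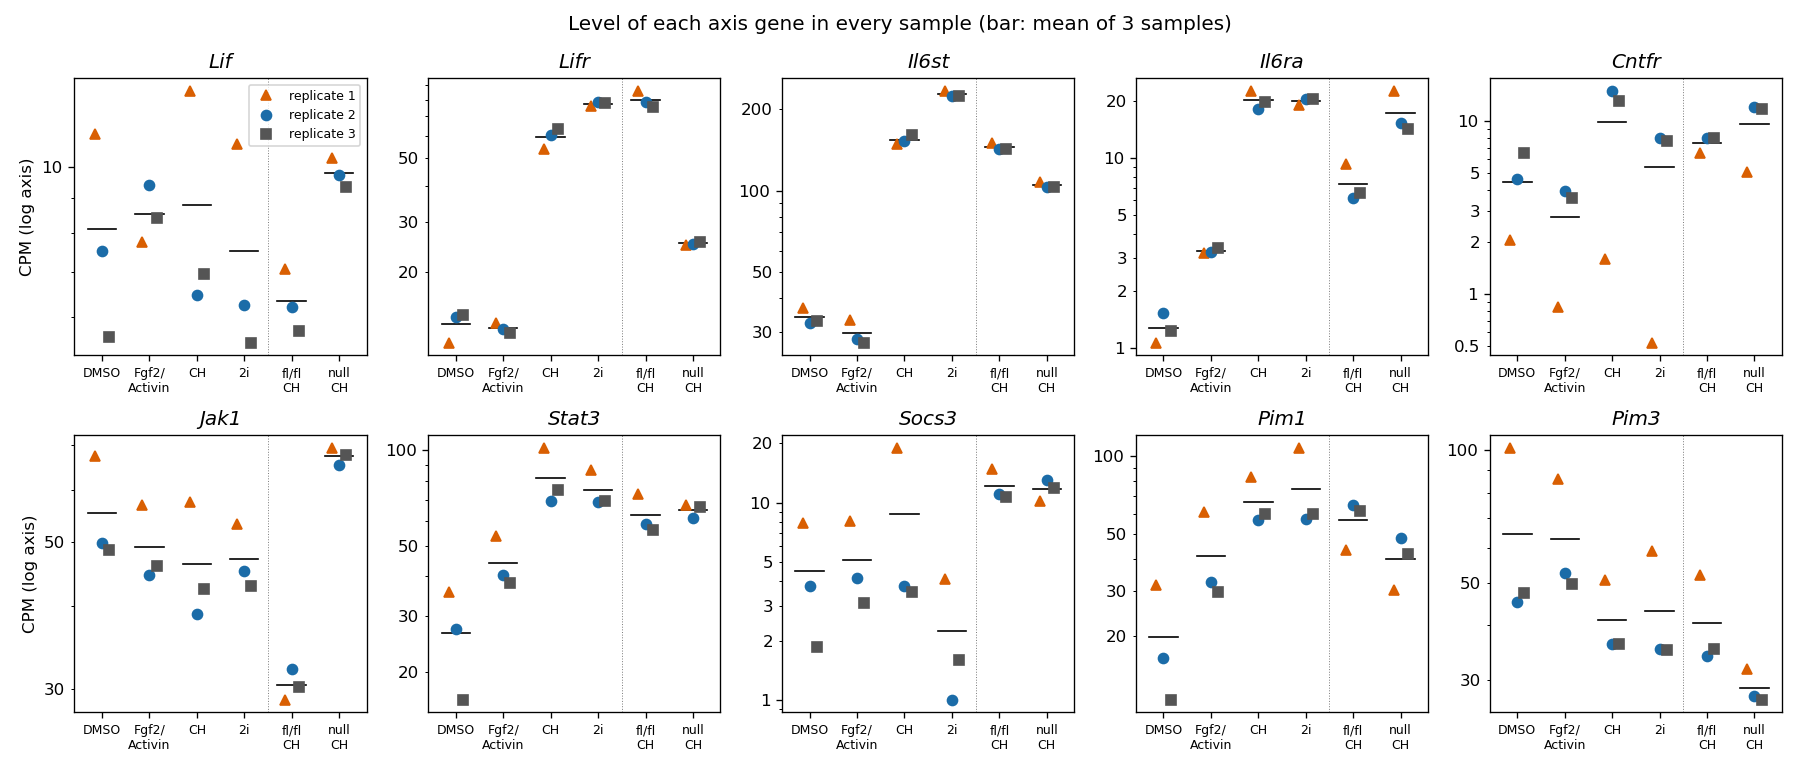
CPM on a log axis of each axis gene in each of the 18 samples, by group, with symbols for replicates 1, 2 and 3 and a bar for the mean of 3 samples. The dotted line separates the E14 cultures from the Esrrb fl/fl line (fl/fl and null, both in CH). Lifr, Il6st and Il6ra are high in CH and 2i, and Cntfr is lowest in replicate 1 of every group.

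Jak1 (chromosome 4, 101152367 to 101265282), a kinase that binds gp130, did not follow the receptors. It had 67.5, 49.8 and 48.7 CPM in DMSO, 57.5, 38.9 and 42.5 in CH, 56.8, 44.6 and 45.9 in Fgf2/Activin and 53.3, 45.2 and 42.9 in 2i, and the 4 ranges overlapped. Stat3 (chromosome 11, 100885098 to 100939540) was lowest in DMSO, at 35.8, 27.3 and 16.3 CPM. It had 102, 69.3 and 75.3 CPM in CH, 53.7, 40.5 and 38.0 in Fgf2/Activin and 86.8, 68.9 and 69.5 in 2i. Every CH and 2i sample lay above every Fgf2/Activin sample, and these above every DMSO sample, while CH and 2i overlapped. Stat3 was 3.10-fold higher in CH than in DMSO (log2 fold change 1.63, standard error 0.26; adjusted p = 4.52e-04, edgeR quasi-likelihood test, Benjamini-Hochberg). Its difference between 2i and Fgf2/Activin, a log2 fold change of 0.77, was not called. The 3' ends of Stat3 and Stat5a overlap over 0.756% of the exon length of Stat3.

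Socs3 (chromosome 11, 117966079 to 117970047), the feedback inhibitor, was not called between CH and DMSO. It had 7.90, 3.79 and 1.86 CPM in DMSO, 18.9, 3.79 and 3.52 in CH, 8.10, 4.15 and 3.10 in Fgf2/Activin and 4.11, 1.003 and 1.59 in 2i. Replicate 1 was the highest sample in each culture. Replicates 2 and 3 of 2i, with 34 and 51 counts, were the 2 lowest of the 12 samples in CPM, and the ranges of the cultures overlapped. The log2 fold change between CH and DMSO was 0.95 with a standard error of 0.75 (adjusted p = 0.342, edgeR quasi-likelihood test, Benjamini-Hochberg). It turned to -0.31 without replicate 1 of CH, the highest of the 12 samples.

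Lower levels of Socs3 in 2i depended on how the replicates were treated. In each same-numbered pair the 2i sample was below the CH sample, at 0.217, 0.265 and 0.453 times its level. The log2 fold change between 2i and CH was -1.98 (standard error 0.79) and was not called, at an adjusted p of 0.183 (edgeR quasi-likelihood test, Benjamini-Hochberg). With a block for the replicate number it was called, at -1.79 (adjusted p = 0.00236, edgeR quasi-likelihood test, Benjamini-Hochberg), and also in the fit without replicate 1 of any group. Without replicate 1 of CH alone it was -0.72 (adjusted p = 0.59, edgeR quasi-likelihood test, Benjamini-Hochberg). Leaving out any other single replicate of 2i or CH gave between -1.61 and -2.75 and no call. Against Fgf2/Activin the 2i samples were also lower in each same-numbered pair, with a log2 fold change of -1.20 that was called with the block, at -1.29 (adjusted p = 0.00352, edgeR quasi-likelihood test, Benjamini-Hochberg), and without replicate 1 at -1.48.

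Pim1 (chromosome 17, 29490753 to 29496112) and Pim3 (chromosome 15, 88862186 to 88865726) encode serine/threonine kinases that favour cell survival. Pim1 had 31.8, 16.5 and 11.3 CPM in DMSO, 83.2, 56.8 and 59.9 in CH, 60.7, 32.5 and 29.6 in Fgf2/Activin and 108, 57.1 and 59.9 in 2i. All CH and 2i samples lay above all DMSO samples, and Fgf2/Activin overlapped both. Pim1 was 3.35-fold higher in CH than in DMSO (log2 fold change 1.74, standard error 0.41; adjusted p = 0.00513, edgeR quasi-likelihood test, Benjamini-Hochberg). This call was lost, with adjusted p-values of 0.0101 to 0.0236 by the same edgeR test, without replicate 2 or 3 of DMSO or any one replicate of CH, and at 0.012 in a fit of the 6 samples compared. With the replicate block the adjusted p was 1.50e-06 (edgeR quasi-likelihood test, Benjamini-Hochberg). Exons of the antisense gene Gm26885 overlap 14.5% of the exon length of Pim1, so that part of its reads may belong to that gene.

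Pim3 had 101, 45.3 and 47.3 CPM in DMSO, 86.2, 52.5 and 49.8 in Fgf2/Activin, 50.7, 36.3 and 36.2 in CH and 59.0, 35.3 and 35.2 in 2i. Replicate 1 was the highest in each culture, and within each replicate number the CH and 2i samples were below those of DMSO and Fgf2/Activin. No comparison called Pim3, and its log2 fold change between CH and DMSO was -0.65 (standard error 0.34; adjusted p = 0.148, edgeR quasi-likelihood test, Benjamini-Hochberg). Of the 3 genes known as STAT3 targets, Pim1 alone was thus called higher in CH, where Lifr, Il6st and Il6ra were, and Socs3 and Pim3 were not called.

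The 2i medium adds the MEK inhibitor to CH. Between 2i and CH, 0 of 10 axis genes were called higher, where 0.317% of the 16413 genes tested were, and 0 were called lower, where 1.67% were. At an unadjusted p under 0.05, 2 were higher (Il6st and Lifr) and 1 lower (Socs3), and DESeq2's Wald test called none of the 10. The block raised the genes called from 326 to 672 and the axis genes called from 0 to 1, which was Socs3. Without replicate 2 of CH, or replicate 1, 2 or 3 of 2i, the genes called numbered 175, 208, 144 and 144.

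Between Fgf2/Activin and DMSO, 1 of 10 axis genes was called higher, where 0.902% of genes tested were, and 0 were called lower, where 0.347% were. At an unadjusted p under 0.05, 3 were higher (Il6ra, Pim1 and Stat3) and 1 lower (Il6st), and DESeq2's Wald test called 1 higher and 0 lower. The gene called was Il6ra, 2.54-fold higher in Fgf2/Activin (log2 fold change 1.35; adjusted p = 5.37e-04, edgeR quasi-likelihood test, Benjamini-Hochberg). It was not called in a fit of only the 6 samples compared, at an adjusted p of 0.025 by the same edgeR test. With the replicate block 424 genes were called instead of 205, and 2 axis genes instead of 1, since Pim1 was called at a log2 fold change of 1.07 (adjusted p = 7.32e-04, edgeR quasi-likelihood test, Benjamini-Hochberg). The genes called numbered 121 without replicate 3 of DMSO, and 112 and 118 without replicate 2 or 3 of Fgf2/Activin.

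Between 2i and Fgf2/Activin, 3 of 10 axis genes (Il6ra, Il6st and Lifr) were called higher in 2i, where 9.13% of genes tested were, and 0 were called lower, where 14.4% were. At an unadjusted p under 0.05, 5 were higher and 0 lower, and DESeq2's Wald test gave 3 higher and 0 lower. The comparisons of the E14 cultures share samples, so their values are given side by side and not as separate evidence.

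In the Esrrb fl/fl line, Esrrb (chromosome 12, 86361117 to 86521628) had 144, 111 and 110.0 CPM without and 58.1, 62.8 and 58.7 CPM with 4OHT. All 3 treated samples were below the others, at a log2 fold change of -0.99 (adjusted p = 7.44e-05, edgeR quasi-likelihood test, Benjamini-Hochberg) over the whole gene, just under the minimum of a call. Reads over the floxed exon alone were not analysed here.

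Of the 10 axis genes, 2 were called higher in Esrrb null than in Esrrb fl/fl cells, where 12.8% of the 14893 genes tested were, and 1 was called lower, where 3.87% were. The median log2 fold change of the 10 was 0.03, against 0.00 over all genes tested. Lifr had 85.8, 78.4 and 75.7 CPM in Esrrb fl/fl and 24.9, 25.1 and 25.6 CPM in Esrrb null cells. All null samples were far below the fl/fl samples and above the DMSO samples of the E14 cells. Lifr was 3.09-fold lower (log2 fold change -1.63, standard error 0.07; adjusted p = 1.21e-06, edgeR quasi-likelihood test, Benjamini-Hochberg). Il6st had 150.2, 142 and 142 CPM and 108, 103 and 103 CPM, which did not overlap either, but its log2 fold change of -0.43 was too small for a call.

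Il6ra moved the other way, from 9.28, 6.17 and 6.57 CPM in Esrrb fl/fl to 22.5, 15.2 and 14.2 CPM in Esrrb null cells. Every null sample was above every fl/fl sample, with a log2 fold change of 1.27 ± 0.21 (with the standard error, adjusted p = 0.00102, edgeR quasi-likelihood test, Benjamini-Hochberg). Jak1 had 28.9, 32.2 and 30.2 CPM in Esrrb fl/fl and 69.3, 65.4 and 67.6 CPM in Esrrb null cells. It was 2.27-fold higher without overlap (log2 fold change 1.19; adjusted p = 3.64e-06, edgeR quasi-likelihood test, Benjamini-Hochberg). Cntfr had 6.54, 7.93 and 7.98 CPM and 5.04, 12.0 and 11.7 CPM, with replicate 1 lowest in both groups and the ranges overlapping.

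Stat3 had 73.0, 58.8 and 56.1 CPM in Esrrb fl/fl and 67.1, 61.1 and 66.1 CPM in Esrrb null cells, and Socs3 14.8, 11.1 and 10.6 CPM and 10.2, 12.9 and 11.8 CPM. For both the ranges overlapped. Between same-numbered samples, null cells held 0.687, 1.17 and 1.11 times the Socs3 of fl/fl cells, and 0.290, 0.321 and 0.338 times the Lifr. Pim1 had 43.4, 64.7 and 61.4 CPM and 30.2, 48.3 and 41.6 CPM, lower in each same-numbered pair with overlapping ranges, and Pim3 had 51.9, 34.2 and 35.3 CPM and 31.8, 27.7 and 27.1 CPM, lower without overlap. Neither was called, at log2 fold changes of -0.46 and -0.45.

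Beyond the 10 axis genes, 53 other genes of the pathway were listed by role, of which 48 passed the filter in the E14 cultures and 45 in the Esrrb fl/fl line. Of the 48, CH raised 9 and lowered 5 by these calls against DMSO, where 7.51% and 10.2% of all genes tested were called, at a median log2 fold change of 0.20. Between 2i and CH 0 were called higher and 0 lower by edgeR's quasi-likelihood test, against 0.317% and 1.67% of all genes tested. Between 2i and Fgf2/Activin 10 were called higher and 10 lower, against 9.13% and 14.4%. In Esrrb null cells 7 of 45 were called higher and 3 lower, against 12.8% and 3.87%. These counts include genes such as Osm and Clcf1, which were near absent in some groups and passed the filter through the groups where they were high.

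Among the 9 other ligands of the family, Osm, which in the mouse binds Osmr with gp130, differed between the cultures. It had 0.268, 0.219 and 0.0387 CPM in DMSO and 0.362, 0.362 and 0.278 CPM in Fgf2/Activin, which are 10, 7 and 1 and 12, 11 and 8 counts, against 22.9, 13.5 and 17.3 CPM in CH and 53.6, 38.1 and 35.5 CPM in 2i. It was near absent in the first pair and clearly expressed in the second, and it passed the filter only through that second pair, so that a difference between the pairs was set by the filter. All CH samples were far above all DMSO samples, and no ratio is quoted here over so few counts. The plot of log2 fold changes draws the fitted value of Osm, which is no test of this difference. In the Esrrb fl/fl line it had 11.1, 7.41 and 7.98 CPM without and 0.912, 0.659 and 0.564 CPM with 4OHT, and all null samples were below all fl/fl samples. Osmr had at most 6 counts in any sample.

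Clcf1, a ligand that signals through Cntfr, moved opposite to Osm. It had 5.33, 5.67 and 4.45 CPM in DMSO and 0.409, 0.163 and 0.160 CPM in CH. All CH samples, with 12, 5 and 4 counts, were below all DMSO samples. Clcf1 was low in CH and 2i and passed the filter through the other cultures, so its difference was also set by the filter. Exons of another gene on the same strand overlap 8.17% of the exon length of Clcf1.

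Among the other kinases, Jak3 followed Lifr. It had 13.0, 18.5 and 13.8 CPM in DMSO, 46.8, 59.0 and 62.9 in CH, 42.9, 38.9 and 39.0 in Esrrb fl/fl and 18.3, 17.1 and 16.3 in Esrrb null cells. CH lay above DMSO and null cells below fl/fl cells without overlap, at log2 fold changes of 1.90 and -1.18. Jak2 rose in Esrrb null cells, from 4.88, 5.96 and 4.28 CPM to 27.0, 22.7 and 23.5 CPM (log2 fold change 2.31), as did Jak1. Exons of Insl3 overlap 7.55% of the exon length of Jak3. Among the other STAT genes, Stat4 and Stat5a were called higher in CH against DMSO, and Stat5a and Stat5b in Esrrb null cells. Stat5a lost its call in CH without replicate 2 or 3 of DMSO and in a fit of only the 6 samples compared, where Stat4 lost its own, and lost its call in null cells without replicate 1 of Esrrb fl/fl and without replicate 1 of every group. Exons of another gene overlap 26.7% of the exon length of Stat4.

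Of the 14 other inhibitors of JAK and STAT, 0 were called higher and 1 (Cish) lower in CH than in DMSO, against 7.51% and 10.2% of all genes tested, and the Cish call was lost without replicate 1 of DMSO, without any one replicate of CH, and in a fit of only the 6 samples compared. Between 2i and Fgf2/Activin 1 was called higher (Pias3) and 2 lower (Cish and Socs1), against 9.13% and 14.4%. Socs1 had 7.79, 6.45 and 5.39 CPM in Fgf2/Activin and 2.19, 1.36 and 1.25 CPM in 2i, every 2i sample below every Fgf2/Activin sample, at a log2 fold change of -2.03. In Esrrb null cells 1 inhibitor (Socs1) was called higher and 0 lower, against 12.8% and 3.87% of all genes tested. Socs1 had 3.06, 2.23 and 2.24 CPM in Esrrb fl/fl and 6.43, 5.93 and 6.58 CPM in Esrrb null cells.

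Of 13 other genes known to respond to Lif or STAT3 in ES cells, 12 passed the filter, of which 4 were called higher and 2 lower in CH against DMSO, where 7.51% and 10.2% of all genes tested were. The 4 were Gbx2, of whose exon length another gene overlaps 43.5%, Klf4, Klf5 and Tfcp2l1. Klf4, a naive transcription factor, had 6.51, 3.79 and 3.40 CPM in DMSO and 116, 56.2 and 70.1 CPM in CH, and Tfcp2l1, another, 30.3, 9.37 and 7.77 CPM and 298, 251 and 259.8 CPM. All CH samples were far above the DMSO samples, at log2 fold changes of 4.13 and 4.08. Klf4 fell in Esrrb null cells, from 68.8, 44.1 and 46.1 CPM to 14.3, 14.7 and 14.6 CPM (log2 fold change -1.83). Junb, an immediate early gene, had 9.87, 6.48 and 8.08 CPM in Esrrb fl/fl and 51.5, 23.9 and 22.8 CPM in Esrrb null cells and was called higher. The 2 genes called lower in CH were Ier3 and Pim2, and both calls were lost without single replicates of CH or DMSO.

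**Figure D2:**
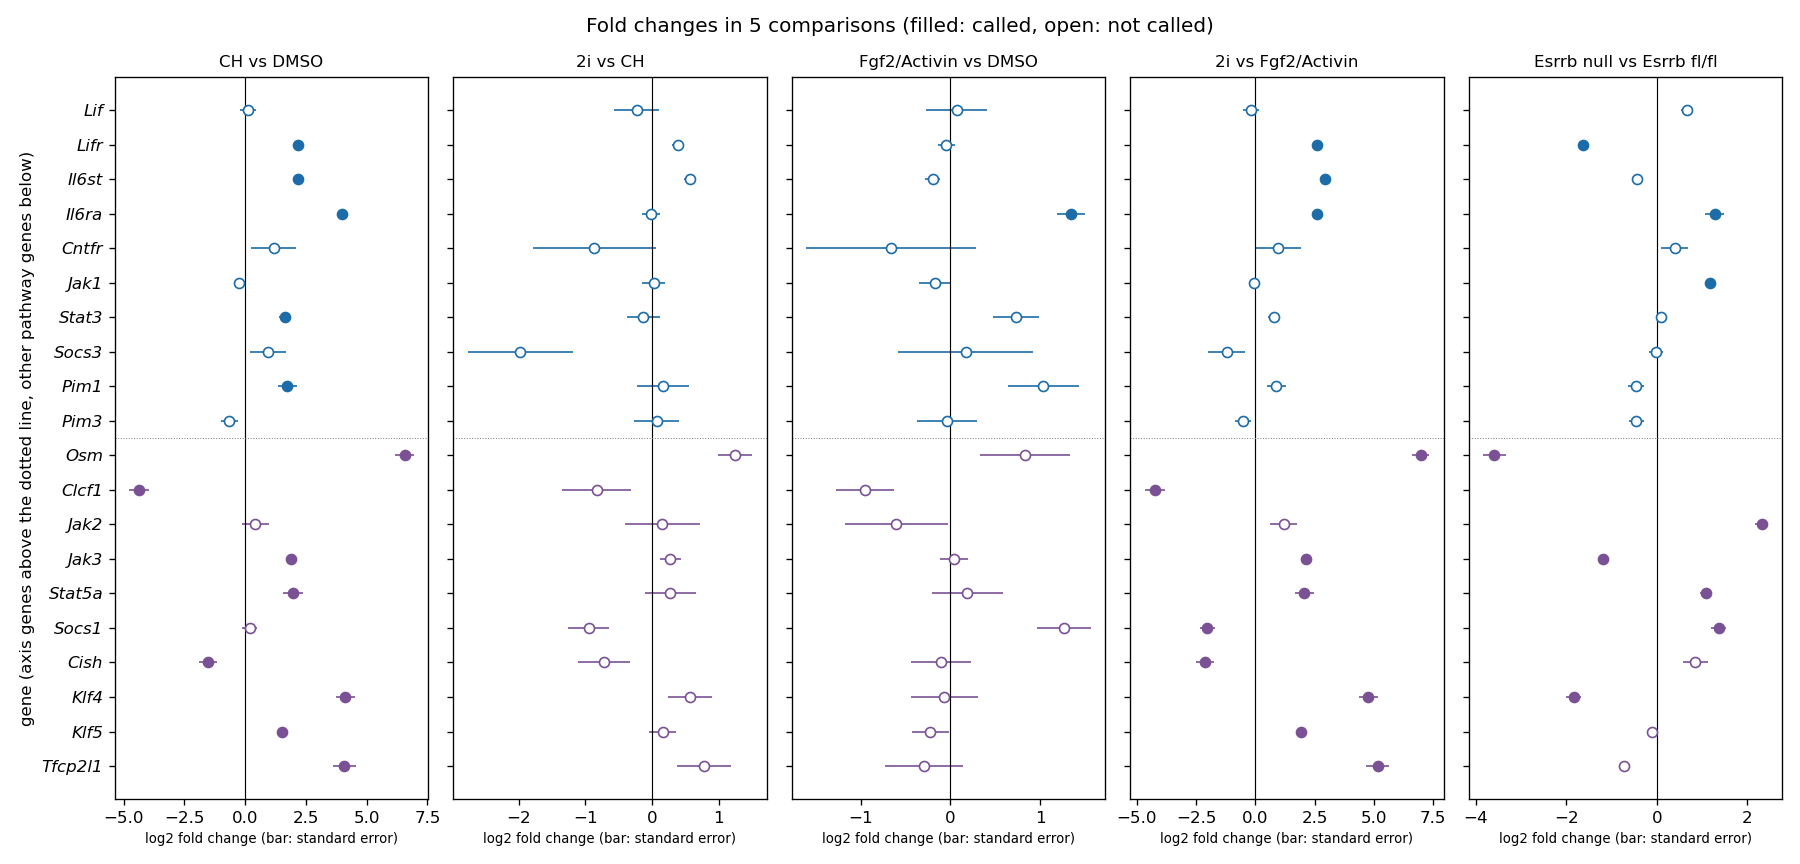
Log2 fold changes (points, with standard errors as bars) of the axis genes and of 10 other genes of the pathway in the 5 comparisons, from edgeR's quasi-likelihood fits. Filled points were called. Each panel has its own horizontal scale. Lifr, Il6st and Il6ra are filled to the right in CH against DMSO, and Lifr to the left in Esrrb null cells. Jak1 and Jak2 are filled to the right there.

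By Pearson correlation of log2(CPM + 1) over the 18 samples, among 10521 genes, the genes most like Lifr were Stmn2 (0.985), Gtsf1l (0.984) and Eps8 (0.984). Those most like Socs3 were Ccdc112 (0.912), Tex9 (0.911) and Fos (0.899), and those most like Cntfr were Hnrnpr (0.898), Zcchc17 (0.895) and Pds5b (0.895). The 18 samples fall into groups and share replicate numbers, so these values describe likeness only.

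Marker genes of other cell states moved with the same groups. The 4 primed epiblast markers summed to 2349, 3390.0 and 3684 CPM in DMSO, 2875, 3468 and 3312 in Fgf2/Activin, 474, 868 and 796 in CH and 305, 440.4 and 427 in 2i, with Dnmt3b the most abundant in each. In the Esrrb fl/fl line they summed to 977, 1295 and 1282 CPM without and 525, 787 and 686 CPM with 4OHT, again mostly Dnmt3b. Fgf5 went the other way there, from 0.804, 3.73 and 3.55 CPM without to 7.78, 21.8 and 19.2 CPM with 4OHT, and was called higher where Otx2 was called lower. The 5 mesendoderm markers summed to 8.997, 14.0 and 14.2 CPM in DMSO, 11.8, 17.7 and 17.5 in Fgf2/Activin, 672, 509 and 442 in CH and 118, 84.4 and 83.5 in 2i. In Esrrb fl/fl and null cells they summed to 53.3, 75.9 and 76.7 CPM and 332, 482 and 475 CPM. T was the most abundant of them wherever the sum was over 50 CPM, and Eomes in DMSO and Fgf2/Activin. Eomes was called lower in CH than in DMSO, where T was called higher. The Eomes call was lost in a fit of only the 6 samples compared. The 4 neural progenitor markers, of which Nes was the most abundant in all groups, summed to between 8.82 and 206 CPM, highest in Esrrb null cells, at 203, 205 and 206 CPM. There Nes was called higher and Pax6 lower than in Esrrb fl/fl cells, and Sox1 was lower in each same-numbered pair.

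The 8 ES cell markers, all with counts in each group, summed to 1783, 1768 and 1677 CPM in DMSO, 2360.0, 2225 and 2211 in Fgf2/Activin, 2995, 3091 and 3345 in CH and 4749, 4460.0 and 4299 in 2i. In the Esrrb fl/fl line they summed to 3580.0, 3313 and 3362 CPM without and 2049, 1931 and 1781 CPM with 4OHT. The 6 trophoblast markers summed to 14.7 to 95.9 CPM, with Cdx2 the most abundant in CH and 2i, Krt7 in DMSO and Eomes, which is in both lists, in the other groups. The 7 primitive endoderm markers stayed between 1.68 and 10.7 CPM in sum, with Dab2 the most abundant in DMSO, CH and Fgf2/Activin. The 7 fibroblast markers summed to 2.41 to 50.6 CPM, with Thy1 the most abundant in each group by its mean. Thy1 was called lower in Esrrb null than in Esrrb fl/fl cells. Col1a2 and Dcn, with at most 7 counts in any fl/fl sample, were called higher there. Both passed the filter only through the null samples where they were high, so the direction of these calls was set by the filter. Postn had no counts in DMSO, Fgf2/Activin, 2i and Esrrb fl/fl cells, and Lum none in DMSO. In these bulk samples fewer cells of a state and less RNA per cell cannot be told apart, and the part of these markers in the differences above was not tested.

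All 10 axis genes matched the RefSeq promoter table (GRCm38.p6), with 17 promoters of 250 bases before to 50 bases after the transcription start. They were searched on both strands, with motifs chosen after the values were seen, for TTCNNNGAA, the element that STAT dimers bind, its stricter form TTCCNGGAA and AAGGTCA, the half-site read by Esrrb. Of all 32851 promoters of this length, 8.30%, 1.15% and 4.72% held them. TTCNNNGAA was found in 1 of the 17, that of Socs3, and TTCCNGGAA in 0. AAGGTCA was found in 2, those of Lifr and Pim3, and in no promoter of Il6st, which was also lower in Esrrb null cells without overlap. The matches are shown in capitals with up to 10 bases on each side. They start 154 bases before the transcription start in Socs3 (chr11:117969502-117969530, minus strand), 247 bases before it in Lifr (chr15:7129322-7129341, plus strand), and 171 bases before it in Pim3 (chr15:88862013-88862039, plus strand). In the GENCODE annotation the first 2 lie in introns of longer transcripts of the same genes, and that of Pim3 lies outside any gene. The only Socs3 window lay inside the annotated gene. The bases upstream of that gene, beyond 117970047, were therefore not searched for any of the motifs. A match describes the letters of the window and not a site that is bound.
Socs3: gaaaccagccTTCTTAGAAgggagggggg
Lifr: cggTGACCTTgcaaggctgg
Pim3: agccggagagTGACCTTcctcagcgcg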

How the data were processed

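Poly(A) RNA reads were aligned by the authors with TopHat2 (mm10). HTSeq, set to ignore strand, gave their counts per Ensembl gene of GRCm38, deposited as whole numbers for 49671 gene identifiers and 18 samples. The Ensembl release is not given in the sources used here. Symbols, positions and exon lengths came from GENCODE's annotation of GRCm38, which held 49412 of the identifiers, and each axis gene had 1 identifier. Samples were grouped by their labels. The 12 E14 samples shared 1 fit, and the 6 from the Esrrb fl/fl line had their own, in R 4.3.3 (edgeR 4.0.16, limma 3.58.1), after filterByExpr and TMM scaling, with glmQLFit and glmQLFTest, first tested on simulated data. Standard errors are the log2 fold change divided by the square root of its F statistic. The cut-offs, adjusted p below 0.01 and log2 fold change beyond 1 in either direction, follow the paper's methods. CPM per kb was CPM divided by the length of all exons merged. Total counts set the precision of genes with few counts.

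The replicate numbers come from the labels. Deviations from the group means of same-numbered samples correlated in all comparisons, between 0.372 and 0.839 across 10521 genes, and those of replicate 1 with other numbers were all negative. Deviations within a group cancel out, so these negative values follow in part from the positive ones. Replicates 2 and 3 also correlated with each other across groups, between 0.343 and 0.737, about as much as with themselves, so the values set replicate 1 apart and do not separate replicate 2 from 3. The paper's methods use no block, and a block for the number was fitted as an alternative. Replicates of every group differed beyond sampling noise (chi-square per gene 1.46 to 65.9). Further alternatives were size factors of DESeq2, no filter, at least 10 counts in every sample, DESeq2 1.42.0, no minimum fold change, only the 6 samples compared, each replicate left out in turn and, chosen after seeing the data, replicate 1 of every group left out.

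Named were the 10 axis genes, genes of the pathway lists that were called in a comparison, Osmr and Esrrb, the 3 genes most like Socs3, Lifr and Cntfr, and cell type markers. Members and lists were chosen with earlier results of these data known. Osmr was named after its values were seen, as were overlapping genes from the annotation. Promoters came from RefSeq. Figures were drawn with matplotlib 3.10.9 in Python 3.11.15.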

Additional observations from a re-analysis of the deposited data

How the results depend on the processing

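All calls of Lifr, Il6st and Stat3 kept their direction and their side of the thresholds under every setting run, as did those of Il6ra and Jak1 except 1 of Il6ra named below. Scaling by DESeq2's size factors, and no filter on low counts, changed no call of an axis gene. The causes of the changes below were not tested except where the setting itself, with fewer genes or samples or no minimum fold change, makes them.

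With at least 10 counts in every sample, which tests fewer genes, 1755 instead of 2907 genes were called between CH and DMSO and 2332 instead of 3857 between 2i and Fgf2/Activin. DESeq2's Wald test called 605 instead of 326 genes between 2i and CH and 379 instead of 205 between Fgf2/Activin and DMSO. It was run on 29782 genes without filterByExpr and with its own size factors, so more than the test differed. Alone in edgeR, leaving out the filter gave 389 and 243 genes, and these size factors gave 328 and 214. Without a minimum fold change, 4750 genes were called between CH and DMSO, 6193 between 2i and Fgf2/Activin and 6621 instead of 2485 between Esrrb null and fl/fl cells. Axis genes called then numbered 1 instead of 0 between 2i and CH (Il6st), and 5 instead of 3 between Esrrb null and fl/fl cells (Lif and Il6st were added).

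With the replicate block, 672 genes and 1 axis gene (Socs3, log2 fold change -1.79) were called between 2i and CH, and 424 genes and 2 axis genes (Il6ra and Pim1) between Fgf2/Activin and DMSO. Between 2i and Fgf2/Activin Socs3 was called lower. The log2 fold change of Pim3 between Fgf2/Activin and DMSO turned from -0.04 to 0.005. The block changed no other call of an axis gene. With only the 6 samples compared, and so fewer samples, 100 genes were called between 2i and CH, 87 genes and 0 axis genes between Fgf2/Activin and DMSO, where Il6ra lost its call, and Pim1 lost its call between CH and DMSO.

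With replicate 1 of every group left out, an alternative chosen after seeing the data, 768 genes and 1 axis gene (Socs3) were called between 2i and CH, 499 genes and 2 axis genes (Il6ra and Pim1) between Fgf2/Activin and DMSO, and 5 axis genes instead of 3 between 2i and Fgf2/Activin (Cntfr higher and Socs3 lower were added). Cntfr was also called between CH and DMSO. Since the setting was chosen with the values of replicate 1 known, these calls are no test of Cntfr. Log2 fold changes that turned were those of Il6ra (from -0.01 to 0.11) and Pim3 (from 0.071 to -0.038) between 2i and CH, of Pim3 between Fgf2/Activin and DMSO (from -0.04 to 0.15), and of Socs3 between Esrrb null and fl/fl cells (from -0.03 to 0.23). The cause was not tested.

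Leaving out each replicate in turn, the genes called numbered 144 to 275 between 2i and CH and 112 to 171 between Fgf2/Activin and DMSO, with fewer samples in the fit. Pim1 lost its call between CH and DMSO without 5 of the 6 replicates in turn. Log2 fold changes that turned, none of them called, ranged between CH and DMSO from -0.27 to 0.42 (Lif) and from -0.31 to 1.62 (Socs3). Between 2i and CH they ranged from -0.081 to 0.072 (Il6ra), -0.58 to 0.16 (Lif), -0.087 to 0.21 (Jak1), -0.25 to 0.053 (Stat3), -0.19 to 0.36 (Pim1) and -0.22 to 0.25 (Pim3). Between Fgf2/Activin and DMSO they ranged from -0.14 to 0.013 (Lifr), -0.13 to 0.38 (Lif), -0.32 to 0.85 (Socs3) and -0.33 to 0.44 (Pim3). Between 2i and Fgf2/Activin they ranged from -0.53 to 0.01 (Lif) and -0.15 to 0.065 (Jak1), and between Esrrb null and fl/fl cells from -0.12 to 0.13 (Socs3).

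Depth limits Osm in DMSO and Fgf2/Activin, with at most 12 counts in a sample, and Osmr in all groups. With 3 samples per group and replicate 1 apart from the others, the standard errors of log2 fold changes between CH and DMSO were 0.93 for Cntfr, 0.75 for Socs3, 0.41 for Pim1 and 0.34 for Pim3, against 0.10 for Lifr and 0.09 for Il6st.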
